A study of Thermothelomyces thermophilus with 4 samples.

Results

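The transcripts of 4 regulators of plant cell wall enzymes were followed in the thermophilic filamentous fungus Thermothelomyces thermophilus (deposited as Myceliophthora thermophila) grown on crop straw. The 4 genes are cre-1 (model 2310085, locus MYCTH_2310085), xyr1 (model 2310145, locus MYCTH_2310145), clr-2 (model 38704, locus MYCTH_38704) and res-1 (model 2302052, locus MYCTH_2302052), chosen by their locus numbers out of 9110 gene models. Neither the deposited table nor the RefSeq gene table names these models. The names are those given to the locus numbers in the definition of the set, and they were not checked here against protein sequence. Each culture was a shaken mycelium culture at 45 °C, inoculated with spores, with straw as the carbon source in a defined medium. The carbon source was canola straw with 30 h of culture, or oat, triticale or flax straw with 24 h. Each straw had 1 poly(A) RNA library and no replicate culture, so no difference below has a test or a p-value. The canola library is also the only one taken at 30 h, so the effects of the straw and of the longer culture cannot be told apart wherever canola stands out. The labels name no strain, no mutation and no culture without straw.

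Filamentous fungi make cellulases and hemicellulases when polymer fragments reach the cell and hold them back when easily used sugars are present. CRE-1 is the carbon catabolite repressor, a zinc finger protein that holds back genes for the use of other carbon sources while glucose is at hand. XYR1, named from work in Trichoderma reesei, is a zinc cluster activator of xylanase and cellulase genes. CLR-2, first described in Neurospora crassa, is a zinc cluster activator of cellulase genes whose own transcript responds to cellulose. RES-1 is a regulator of the endoplasmic reticulum stress response, and that organelle folds the secreted enzymes.

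On canola straw cre-1 was at its highest and xyr1 at its lowest. In the deposited values oat straw gave the highest levels of xyr1, clr-2 and res-1. Levels are FPKM, read counts divided by gene length and by the reads assigned in the library. The cre-1 transcript was the most abundant of the 4 on every straw, clr-2 the least abundant on every straw, and xyr1 and res-1 lay between. These orders compare levels per base of gene span with introns included, so a gene with long introns is understated alike in every library. The 4 spans were 1531 bases for cre-1, 3256 for xyr1, 2570 for clr-2 and 2732 for res-1, and none overlapped another RefSeq gene. Libraries held 6495371 reads (triticale) to 7977329 reads (canola), and members had 172 reads (clr-2 on triticale) to 4348 reads (cre-1 on canola). The intervals given below are 95% and cover counting error only, not the spread between cultures. In bulk RNA, fewer expressing hyphae and less transcript per hypha cannot be told apart.

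Differences between straws were set beside those of the 8230 models with a mean of at least 1 FPKM, which include all 4 regulators. A gene counted as past 2-fold when its ratio of FPKM + 1 between 2 libraries was at least 2. In canola over oat 2 of 4 regulators were past 2-fold, xyr1 and clr-2, both lower on canola. The same held for 9.83% of all models in either direction and for 2.6% in the lower direction. In canola over triticale 1 of 4 was past 2-fold, xyr1, lower on canola, against 27.7% of models in either direction and 3.13% in the lower direction. In canola over flax 2 of 4 were past 2-fold, against 11.4% of models. These were cre-1, higher on canola as were 7.91% of models, and xyr1, lower on canola as were 3.48% of models. In oat over triticale clr-2 and res-1 were past 2-fold, both higher on oat, as were 14.2% of models, and 14.6% counting either direction. Both lay close to the mark, with log2 differences of 1.0 and 1.03, and neither passed it after median centring of the libraries. No regulator was past 2-fold in oat over flax (10.6% of models) or in triticale over flax (27.2% of models). Of the calls above, only xyr1 in canola over oat and cre-1 in canola over flax had a counting interval clear of 2-fold. With 4 genes such counts are small, and they are read together with the values of each gene.

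Triticale stood apart from the other libraries across all models. Its median log2(FPKM + 1) lay 0.28 below the mean of the 4 library medians, while the other libraries lay 0.07 to 0.12 above it. The median difference over all models was 0.21 in canola over triticale, 0.19 in oat over triticale and -0.19 in triticale over flax, all on the scale of log2(FPKM + 1). For comparisons of the regulators with triticale the difference after median centring of the libraries is therefore given beside the deposited one.

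**Figure D1:**
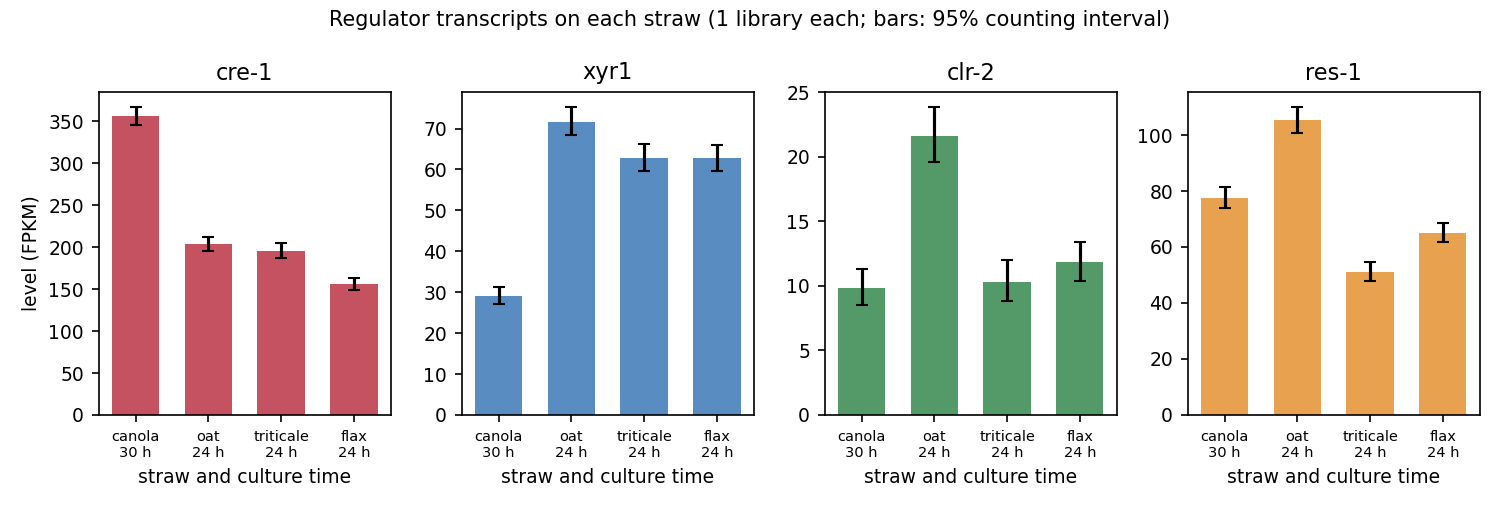
Level in FPKM (vertical axes from 0, one scale per gene) of cre-1, xyr1, clr-2 and res-1 on canola (30 h), oat, triticale and flax straw (24 h each), with 1 library per bar and error bars of 95% counting intervals. Canola holds the tallest bar for cre-1 (356 FPKM) and the shortest for xyr1 (29.1 FPKM), and oat holds the tallest for xyr1, clr-2 and res-1.

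The cre-1 repressor transcript was at 356 FPKM on canola (346 to 367), 204 on oat (196 to 213), 196 on triticale (187 to 205) and 156 on flax (149 to 163). It stood among the most abundant transcripts of every library, at rank 277 of 9110 on canola, 477 on oat, 532 on triticale and 603 on flax. Canola was clearly above the rest and flax below the rest, while oat and triticale did not differ beyond counting error in the deposited values. The FPKM ratio of canola to flax was 2.28 (2.16 to 2.41), that of canola to triticale 1.82 (1.72 to 1.92) and that of canola to oat 1.74 (1.66 to 1.84). After median centring the log2 difference of canola over triticale was 0.46, against 0.86 in the deposited values, and that of triticale over flax was 0.70, against 0.33. Triticale was then the next highest straw after canola. The ratio of oat to triticale was 1.04 (0.981 to 1.11). Its log2 difference on the FPKM + 1 scale was 0.06, and its sign turned under median centring (-0.30) and with the trend with gene length removed (-0.18). The sign held under upper-quartile scaling (0.02). Correcting each library for its expression-level trend moved the cre-1 differences with triticale the other way. Oat over triticale was then 0.22, canola over triticale 1.06 and triticale over flax 0.13. The place of triticale next to canola thus depended on the correction used. Against the next highest straw cre-1 was 1.74 times as high on canola, and 392 tested models (4.76%) were at least as far above every other straw there. The 2-fold mark above every other straw, which 240 models (2.92%) passed on canola, was not reached by cre-1. The flax level was lower than that of the next straw, triticale, which was 1.25 times as high, and 8.60% of tested models were at least as far below on flax.

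The xyr1 activator transcript went the other way. It was at 29.1 FPKM on canola (27.0 to 31.2), 71.7 on oat (68.3 to 75.2), 62.8 on triticale (59.5 to 66.3) and 62.7 on flax (59.7 to 65.9). The 3 cultures of 24 h were within a narrow band, and the canola culture lay below all of them. In the deposited values each of these gaps was more than 2-fold. The FPKM ratio of xyr1 was 0.405 in canola over oat (0.372 to 0.442), 0.463 in canola over triticale (0.422 to 0.506) and 0.463 in canola over flax (0.424 to 0.505). The counting intervals against triticale and flax included the 2-fold mark, and the interval against oat did not. Triticale and flax did not differ beyond counting error in the deposited values, with a ratio of 1.0 (0.931 to 1.08), but their log2 difference was 0.38 after median centring and 0.47 with the trend with gene length removed. Oat was above triticale by a ratio of 1.14 (1.06 to 1.23), a small difference whose sign turned under median centring (log2 difference -0.17, against 0.19 in the deposited values). Oat was also above flax by a ratio of 1.14 (1.07 to 1.22). In rank, xyr1 was at 3407 of 9110 on canola, against 1449 on oat, 1608 on triticale and 1646 on flax.

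Few models shared the low place of xyr1 on canola. Only 18 of 8230 tested models (0.219%) were at least 2-fold below every other straw on canola, and xyr1 was one of them. Comparisons of each straw with all others, here and for the other regulators, were added after the data were seen. Their shares are therefore no measure of chance. By the size of the gap to the next lowest straw, -1.08 on the log2 scale of FPKM + 1, 13 models (xyr1 included) were as far below. With a pseudocount of 10 in place of 1, xyr1 was no longer 2-fold below every other straw, and 5 models were. In canola over triticale the log2 difference was -1.09 in the deposited values and -1.49 after median centring. It was -1.23 under upper-quartile scaling, -1.55 with the trend with gene length removed and -1.12 once each library was corrected for its expression-level trend. None of these 4 corrections brought the difference of canola over triticale nearer to the 2-fold mark, but its size depended on the one used. In canola over flax, the next lowest straw, the log2 difference was -1.08 in the deposited values. There it was -1.11 after median centring, -1.17 under upper-quartile scaling and -1.08 with either trend removed. Without the canola library the highest and lowest straws for xyr1 were 0.19 apart on that scale, against 1.27 with all 4 libraries.

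The clr-2 activator transcript was the least abundant regulator, at 9.85 FPKM on canola (8.54 to 11.3), 21.6 on oat (19.6 to 23.8), 10.3 on triticale (8.82 to 12) and 11.8 on flax (10.4 to 13.4). These levels came from 202, 406, 172 and 242 reads, in the same order of straws. Oat stood above the rest, and in the deposited values the 3 other straws did not differ from each other beyond counting error. The FPKM ratio was 0.456 in canola over oat (0.383 to 0.541), 2.10 in oat over triticale (1.75 to 2.52) and 1.83 in oat over flax (1.55 to 2.15). It was 0.956 in canola over triticale (0.776 to 1.18), 0.832 in canola over flax (0.687 to 1.01) and 0.871 in triticale over flax (0.712 to 1.06). The likeness of canola and triticale depended on the scaling, since their log2 difference was -0.06 in the deposited values and -0.46 after median centring. The sign of the difference of triticale over flax turned under median centring (log2 difference 0.19, against -0.18 in the deposited values). Oat was 1.83 times the next highest straw, flax, and 46 tested models (0.559%) were at least as far above every other straw on oat. The gap missed the 2-fold mark that 24 models (0.292%) passed on oat. The log2 difference of oat over triticale was 1.0, at the 2-fold mark itself, and 0.64 after median centring.

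The res-1 stress regulator transcript was at 77.6 FPKM on canola (73.9 to 81.4), 105 on oat (101 to 110), 51.2 on triticale (47.9 to 54.6) and 65.1 on flax (61.8 to 68.6). In the deposited values all 4 straws were apart beyond counting error, in the order oat, canola, flax and triticale. Oat was 1.36 times the next straw, canola, since the FPKM ratio of canola over oat was 0.737 (0.691 to 0.786). At that size 160 tested models (1.94%) were at least as far above every other straw on oat. The ratio was 2.06 in oat over triticale (1.90 to 2.23), 1.62 in oat over flax (1.51 to 1.73), 1.52 in canola over triticale (1.40 to 1.65) and 1.19 in canola over flax (1.11 to 1.28). It was 0.786 in triticale over flax (0.722 to 0.855). That last difference, -0.34 on the log2 scale, became 0.03 after median centring and 0.10 with the trend with gene length removed. It was -0.28 under upper-quartile scaling and -0.37 once each library was corrected for its expression-level trend. The place of triticale as the lowest straw thus depends on the correction used. The log2 difference of oat over triticale was 1.03 in the deposited values and 0.67 after median centring, and that of canola over triticale was 0.59 and 0.19. With the expression-level trend removed these 2 differences were 1.04 and 0.63.

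Over the 4 straws the regulators spanned similar ranges. The highest level was 2.28 times the lowest for cre-1 (canola over flax), 2.47 times for xyr1 (oat over canola), 2.19 times for clr-2 (oat over canola) and 2.06 times for res-1 (oat over triticale). The median model spanned 0.86 on the log2 scale of FPKM + 1. The regulators spanned 1.03 (res-1) to 1.27 (xyr1), and 28.5% (for xyr1) to 40.4% (for res-1) of tested models spanned at least as much. The range of each regulator rested on 1 or 2 libraries: without canola it was 0.38 for cre-1 and 0.19 for xyr1, and without oat 0.24 for clr-2 and 0.59 for res-1 (0.68 without triticale). The width of these ranges did not set the regulators apart from other models, while the straw at which each peaked or dropped differed between them.

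**Figure D2:**
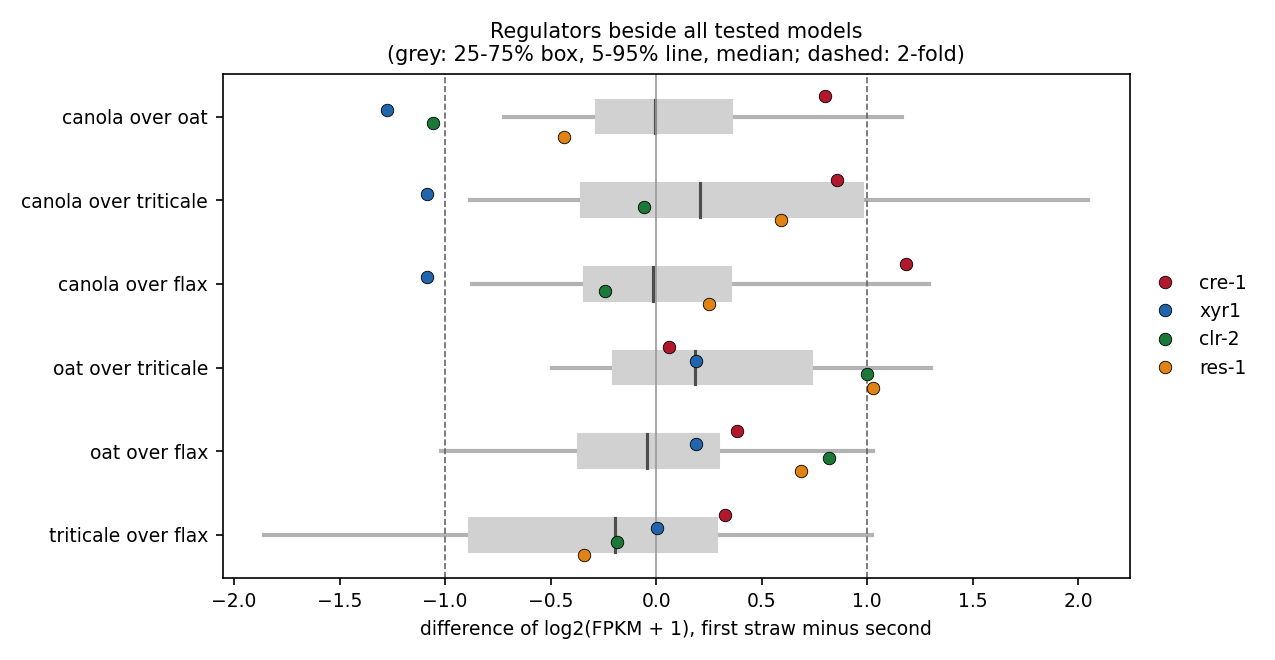
Difference of log2(FPKM + 1) between 2 straws (horizontal axis, first straw minus second) for the 4 regulators (coloured points) beside all 8230 tested models, with grey boxes from the 25th to the 75th percentile, lines from the 5th to the 95th and a dark bar at the median. In all 3 pairs with canola the xyr1 point lies left of the dashed 2-fold line, at -1.27, -1.09 and -1.08, and the cre-1 point lies right of 0.

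Ratios between regulators inside one library do not change when a library is scaled by a single factor, though they do when a trend with gene length or expression level is removed. The FPKM ratio of cre-1 to xyr1, repressor to activator, was 12.2 on canola (11.3 to 13.2), 2.85 on oat (2.67 to 3.03), 3.12 on triticale (2.90 to 3.34) and 2.49 on flax (2.33 to 2.66). Canola thus lay far above the rest, 4.92 times the flax ratio, and this was the widest spread among the 6 pairs of regulators. It follows from the levels above, with cre-1 highest and xyr1 lowest on canola, and is no separate measurement. The ratio of cre-1 to clr-2 was 36.1 on canola (31.4 to 41.8), 9.44 on oat (8.49 to 10.5), 19.0 on triticale (16.3 to 22.3) and 13.2 on flax (11.5 to 15.1), highest on canola and lowest on oat. The ratio of cre-1 to res-1 was 4.59 on canola (4.34 to 4.86), 1.94 on oat (1.83 to 2.06), 3.83 on triticale (3.53 to 4.14) and 2.40 on flax (2.24 to 2.57).

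The activators also differed from each other. The FPKM ratio of xyr1 to clr-2 was 2.95 on canola (2.52 to 3.46), 3.32 on oat (2.97 to 3.70), 6.10 on triticale (5.20 to 7.19) and 5.30 on flax (4.63 to 6.09). It was thus lower on canola and oat than on triticale and flax, with no overlap of the intervals between these pairs of straws. On canola this went with a low xyr1 level, and on oat with a high clr-2 level. The ratio of xyr1 to res-1 was 0.375 on canola (0.343 to 0.408), 0.681 on oat (0.638 to 0.726), 1.23 on triticale (1.13 to 1.34) and 0.964 on flax (0.897 to 1.04). The ratio of clr-2 to res-1 was the steadiest, at 0.127 on canola (0.109 to 0.147), 0.205 on oat (0.184 to 0.228), 0.201 on triticale (0.170 to 0.237) and 0.182 on flax (0.158 to 0.209). In the deposited values it was thus lower on canola than on the 3 straws sampled at 24 h. Its steadiness depends on the processing. Once each library was corrected for its expression-level trend, the log2 difference of triticale over flax was 0.40 for clr-2 and -0.37 for res-1, against -0.18 and -0.34 in the deposited values.

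**Figure D3:**
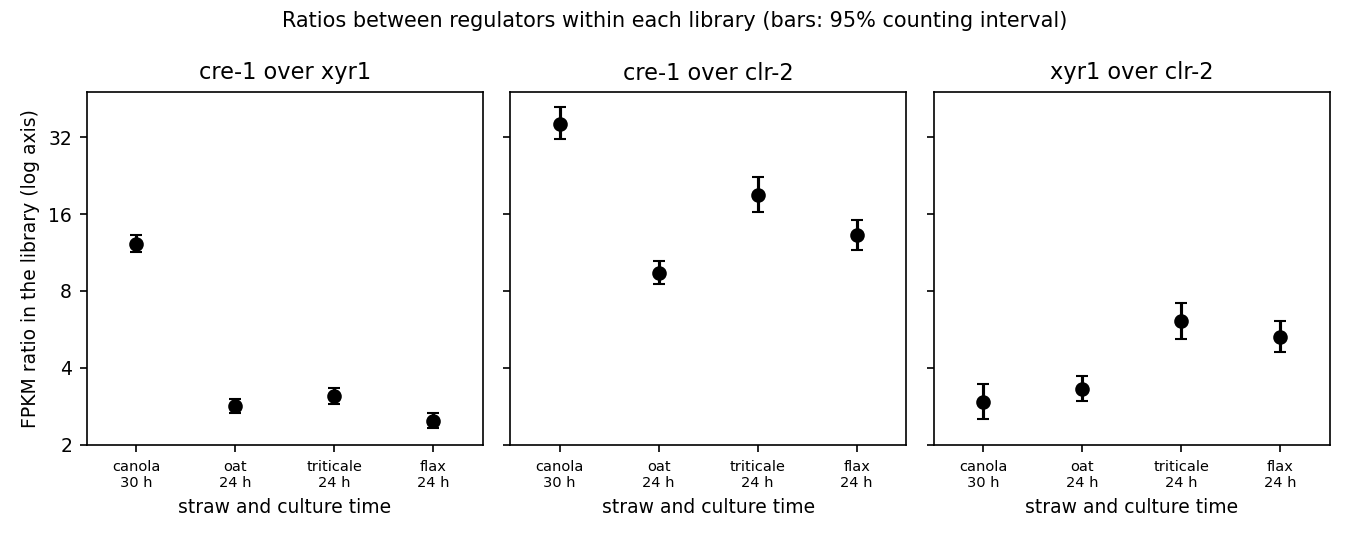
FPKM ratio of cre-1 to xyr1, cre-1 to clr-2 and xyr1 to clr-2 inside each library (log vertical axis, the same for all panels), on canola (30 h), oat, triticale and flax straw (24 h each), with bars for 95% counting intervals. The canola point for cre-1 over xyr1, at 12.2, stands apart from the others at 2.49 to 3.12.

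The 4 profiles were compared by the largest gap between them at any straw, after each log2(FPKM + 1) profile was centred on its own mean over the 4 libraries. The pair most alike was clr-2 and res-1, with a largest gap of 0.44. Even so, 3.56% of tested models were closer to clr-2 than res-1 was, and 13.5% were closer to res-1 than clr-2 was. The gap between xyr1 and clr-2 was 0.52. The pair least alike was cre-1 and xyr1, with a gap of 1.57, where 96.6% of tested models were closer to cre-1 and 87.5% closer to xyr1. With 4 libraries many models share a profile by this measure, so closeness says nothing of shared function or control. Within a largest gap of 0.2 there were 42 models around cre-1, 67 around res-1, 9 around clr-2 and 6 around xyr1.

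Models picked as nearest share the peak or dip of their regulator through that choice, so the likeness is no separate result. The models nearest to cre-1 were MYCTH_2301956 (gap 0.06), MYCTH_2312307 (0.07) and MYCTH_2314489 (0.10). The first of these was at 120 FPKM on canola, 65.7 on oat, 68.7 on triticale and 53.0 on flax, and both other models also peaked on canola. The models nearest to xyr1 were MYCTH_2135800 (gap 0.07), MYCTH_71063 (0.10) and MYCTH_2301854 (0.13). MYCTH_2135800 was at 16.1 FPKM on canola, 39.1 on oat, 37.0 on triticale and 34.6 on flax, with canola lowest as for xyr1. The models nearest to res-1 were MYCTH_2307037 (gap 0.07), MYCTH_2294607 (0.08) and MYCTH_2142129 (0.08), and MYCTH_2294607 was at 92.7 FPKM on canola, 117 on oat, 56.2 on triticale and 73.6 on flax. For clr-2 the nearest were models 2130287 (gap 0.13), MYCTH_2300008 (0.14) and MYCTH_2124179 (0.16). These had only 2 to 34 reads per library, so their likeness to clr-2 is not firm at this depth. Their levels were 0.646 to 3.56 FPKM, where the added 1 makes folds smaller, so their FPKM profiles are less like that of clr-2.

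**Figure D4:**
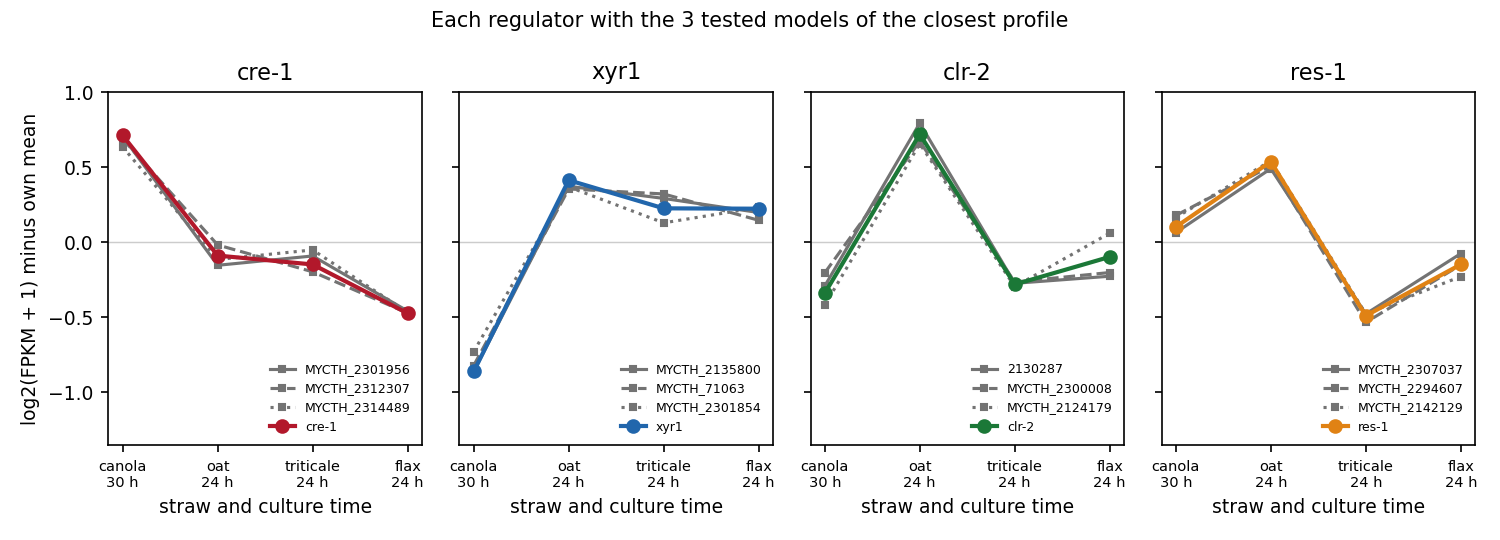
Profile of each regulator (coloured line) and of the 3 tested models closest to it (grey lines), as log2(FPKM + 1) minus the own mean over the 4 libraries (vertical axis), on canola (30 h), oat, triticale and flax straw (24 h each). The cre-1 lines peak on canola, the xyr1 lines dip there, and the clr-2 and res-1 lines peak on oat. The grey lines share these shapes because they were chosen as the closest.

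Few enzyme genes can be set beside the regulators by name, since 6 models carry a RefSeq symbol and 5 of them reach a mean of 1 FPKM (lcc1, a laccase gene, had 1 to 4 reads per library). In canola over oat 2 of these 5 were past 2-fold higher (7.23% of all tested models) and 1 lower (2.6%). In canola over triticale 4 were higher (24.6%) and 0 lower (3.13%), and in canola over flax 3 were higher (7.91%) and 1 lower (3.48%). In oat over triticale 2 were higher (14.2%) and 0 lower (0.352%), and in oat over flax 1 was higher (5.26%) and 2 lower (5.36%). In triticale over flax 1 was higher (5.29%) and 2 lower (21.9%). The 5 mix plant polymer enzyme genes (cbdA, ganA and gla1) with cat1 and phy1, so a median over them describes no single class. The median log2 difference of the 5 was 0.95 in canola over oat, 1.99 in canola over triticale and 1.16 in canola over flax, beside medians over all tested models of -0.00, 0.21 and -0.02. It was 0.83 in oat over triticale, 0.63 in oat over flax and -0.15 in triticale over flax, beside 0.19, -0.04 and -0.19 over all tested models. The profile of ganA, an endo-galactanase gene of pectin breakdown, was the closest of the 5 to cre-1, with a largest gap of 0.21 and 44 models closer. Like cre-1 it was highest on canola and lowest on flax, at 275 FPKM on canola, 142 on oat, 131 on triticale and 91.5 on flax. None of the 5 came near xyr1, with gaps of 1.63 (phy1, a phytase gene) to 2.35 (cat1, a catalase gene). In the deposited values the cellobiose dehydrogenase gene cbdA, an oxidative partner in cellulose breakdown, was highest on oat, as were both activators, but lowest on flax. For xyr1 the top place of oat did not hold under median centring or with the trend with gene length removed. In canola over flax the FPKM ratio of cbdA was 2.24 (2.15 to 2.34), while that of xyr1 was 0.463. In canola over oat both were lower on canola, at 0.331 for cbdA and 0.405 for xyr1. The same held in canola over triticale, at 0.536 for cbdA and 0.463 for xyr1. Among the pairs with canola, cbdA and xyr1 thus differed in opposite directions only in canola over flax.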

How the data were processed

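The authors deposited 1 table of FPKM values for 9110 gene models, with the length of each model in bases per the file headers. Poly(A) RNA was taken with Trizol and made into libraries with an Illumina mRNA-Seq kit, per the labels' protocols. No aligner, counter, genome build, annotation or strandedness is stated (not given in the sources used here). FPKM times length was a whole multiple of 1 step in each column (100% of values within 0.001 of a whole read), which gave reads per gene and library totals. From these, exact Poisson intervals of levels and exact Clopper-Pearson intervals of ratios (95%) were computed with scipy 1.17.1. They cover counting error only, since PCR copies cannot be told from separate molecules.

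Models with a mean of at least 1 FPKM (8230, with 880 left out) were set against each other on the log2(FPKM + 1) scale, where folds of low genes come out too small. Ratios of single genes are of FPKM. Lowess trends used statsmodels 0.14.6. The read recovery, intervals and fold rule were tested on simulated data. Named genes are the 4 regulators, the genes with a RefSeq symbol (assembly ASM22609v1, used for symbols and overlaps only) and the 3 models closest to each regulator. A further 4 lists based on protein patterns were not used here. The regulators and lists were chosen with earlier results of these data known.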

Additional observations from a re-analysis of the deposited data

How the results depend on the processing

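Pseudocounts of 10 and 0.1, no filter, a filter at a mean FPKM of 10, median centring, upper-quartile scaling and removal of library trends against gene length or against expression level were tried. The cause of the changes below was not tested. With a pseudocount of 10 the regulators past 2-fold numbered 1 in canola over flax, 1 in canola over oat, 0 in canola over triticale and 0 in oat over triticale, and 0 were below every other straw on canola. In oat over triticale they numbered 0 under median centring, upper-quartile scaling and the length trend and 1 under the expression trend, which also gave 2 in canola over triticale. The log2 range over the straws was 0.67 for clr-2 and 1.06 for xyr1 with a pseudocount of 10, 1.10 for cre-1 under upper-quartile scaling, 1.49 for xyr1 and 0.70 for res-1 under median centring, and 1.55 and 0.71 with the length trend removed. With 1 library left out it ran from 0.38 to 1.18 for cre-1, 0.19 to 1.27 for xyr1, 0.24 to 1.06 for clr-2 and 0.59 to 1.03 for res-1. Genes with a symbol past 2-fold numbered 1 in canola over oat and 0 in oat over triticale with a pseudocount of 10, and 1 in oat over triticale with the filter at 10, median centring or either trend removed.

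Of all models, 240 were above every other straw on canola (116 with a pseudocount of 10) and 18 below (5 to 44 over the alternatives), while 24 were above on oat (9 to 37). In oat over triticale 1169 were higher (117 to 1616) and 29 lower (4 to 165), and in canola over triticale 2024 were higher (770 to 2275) and 258 lower (107 to 1116). In triticale over flax 435 were higher (227 to 936) and 1803 lower (579 to 2062). In canola over flax 651 were higher and 286 lower (292 and 111 with a pseudocount of 10), in canola over oat 595 and 214 (226 and 113), and in oat over flax 433 and 441 (177 and 177). The comparison of each straw with the other 3 was added after the data were seen. No paired analysis was possible because each straw has 1 library. Without replicate cultures, no difference can be set against the spread between cultures.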
